A study of Mus musculus with 24 samples.

Results

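Genes for protein folding in the endoplasmic reticulum (ER), and for clearing what fails to fold there, were followed in ileal fragments exposed to a bile acid or to extracts. The 31 genes were taken by symbol: the ER stress sensors with Xbp1 (6 genes), chaperones and co-chaperones (11), disulfide isomerases (5), factors of ER-associated degradation (8) and the translocon subunit Sec61b. All 31 matched 1 row each of a table with 57126 gene identifiers, and 30 had enough counts to be tested. Derl3, a derlin of the degradation machinery, had 0 to 15 counts per library and was not tested. A count matrix of 3′ tags cannot show Xbp1 splicing, sensor phosphorylation or protein levels, so only mRNA abundance is described.

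Pieces of ileum came from male C57BL/6J mice of wild-type genotype that had been without food for 4 h. They stayed 8 h in medium with 1 of 6 additives, and each additive has 4 libraries. The additives were the solvent DMSO, the taurine conjugate of chenodeoxycholic acid (tCDCA), and extracts of wild-type (WT) or Asbt-/- donors, each as CME(-) and as CME(+). Asbt carries bile acids from the gut lumen into ileal enterocytes, and the donors of the extracts alone carried its deletion. The labels leave CME unexplained, and CME(+) was taken here as the form depleted of bile acids. A concentration of 200 µM is given for replicates 2 to 4 of tCDCA and of both CME(-) groups. Replicate 1 of each group carries 1 column prefix and replicates 2 to 4 another, called the first and second run here. The submitters marked 3 libraries as removed, and these were left out: DMSO replicate 1 (0.5% DMSO, against 0.6% in the others), Asbt-/- CME(-) replicate 3 and WT CME(+) replicate 2 (both for poor mapping). This left 21 libraries, with 3 in each of the DMSO, WT CME(+) and Asbt-/- CME(-) groups and 4 in each of the others. No used DMSO library is from the first run. Whether replicates are separate animals is not said in the labels. The p-values therefore measure the spread between libraries, which may be technical.

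Total counts were 2.755 to 5.602 M per used library. Levels are CPM, counts scaled to a common library size with TMM factors, and a change is the log2 difference between groups from 1 edgeR quasi-likelihood model with terms for group and run, with its standard error (SE). A gene is called at a Benjamini-Hochberg adjusted p under 0.05 over the 13125 genes tested. The ileal gene Fabp6 lay at 2620 to 8250 CPM and the enterocyte gene Vil1 at 202 to 586 CPM, while 6 of 8 pancreatic enzyme genes were at 0 in every used library. Mitochondrial rRNA took 5.29 to 34.6% of the counts in second-run libraries and 6.78 to 8.29% in first-run ones. Another single gene, unnamed here, took 8.37 to 18.19% in used second-run libraries and 3.21 to 5.91% in used first-run ones.

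Proteins bound for secretion or membranes enter the ER through the Sec61 channel, where chaperones fold them and isomerases set their disulfide bonds. When unfolded protein accumulates, the sensors IRE1, PERK and ATF6 start the unfolded protein response. ATF6 and spliced XBP1 then raise chaperones, isomerases and degradation factors, whereas PERK phosphorylates eIF2alpha, which favours translation of ATF4. Other kinases that sense amino acid shortage, haem shortage or viral RNA also act on eIF2alpha, so ATF4 target genes can rise with or without the ATF6 and XBP1 branches. Paneth and goblet cells of the intestine secrete heavily and depend on this machinery.

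The ER stress response element (ERSE), a CCAAT box set 9 bases from CCACG, is the textbook site through which ATF6, together with NF-Y, acts on chaperone genes. It is a trait of sequence, apart from any expression value, and only part of the set carries it. Because the site is known from such genes, its share among the members is not an independent result. RefSeq windows (build GRCm38.p6, 250 bases before to 50 after the transcription start) were found for 26 of the 31 members, and not for Atf6, Ern2, Hyou1, Manf and Derl1. The full motif was CCAAT followed after 9 bases of any kind by CCACG, searched on both strands. It was in 9 of the 26 members (34.6%), against 0.137% of all 27025 genes, each counted over all its windows. The matches are given 5′ to 3′ on the gene's strand, with the fixed letters in capitals. A match read as CGTGG to ATTGG lies in the opposite direction.
Hspa5: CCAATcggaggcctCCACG
Pdia6: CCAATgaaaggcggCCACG
Canx: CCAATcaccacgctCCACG
Dnajc3: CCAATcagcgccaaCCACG
Syvn1: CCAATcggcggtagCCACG
Hsp90b1, upstream: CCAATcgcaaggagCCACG
Hsp90b1, downstream: CGTGGtgaggcacgATTGG
Calr: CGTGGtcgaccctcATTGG
Creld2: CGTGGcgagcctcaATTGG
Derl3: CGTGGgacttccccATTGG

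The related ERSE-II, ATTGG and CCACG with 1 base between them, was in Dnajb11 and Herpud1 (0.0444% of all genes). The UPRE core TGACGTGG, linked to XBP1, was in Txndc5 alone among the 26 members (0.714% of all genes). TGATGNAA, the site of ATF4 with C/EBP partners, was in Herpud1 and Txndc5 (4.51% of all genes), on the strand opposite to the gene. The short boxes that make up the ERSE are common: CCACG was in 21 members and 35.5% of all genes. CCAAT, which is part of both ERSE forms, was in 22 members and 41.1% of all genes. A match of letters is a description and does not show that a factor binds.

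Of the genes on which the comparisons below turn, the 150 bases before the start are given for Hspa5 (chr2:34771940-34772089, plus strand), Pdia6 (chr12:17266439-17266588, plus strand), Herpud1 (chr8:94386279-94386428, plus strand) and Pdia4 (chr6:47813513-47813662, minus strand). All 4 are RefSeq sequence of GRCm38.p6 upstream of the annotated transcript. Capitals mark the ERSE in Hspa5 and Pdia6 and the ERSE-II in Herpud1. Pdia4 has neither in its window, and its capitals mark 2 CCAAT boxes, 1 in each direction.
Hspa5: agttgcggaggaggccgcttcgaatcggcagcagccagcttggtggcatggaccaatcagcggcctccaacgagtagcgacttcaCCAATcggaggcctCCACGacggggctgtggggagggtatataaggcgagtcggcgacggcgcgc
Pdia6: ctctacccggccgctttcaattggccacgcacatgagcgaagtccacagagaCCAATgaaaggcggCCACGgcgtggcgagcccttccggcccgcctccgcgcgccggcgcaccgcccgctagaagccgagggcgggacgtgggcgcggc
Herpud1: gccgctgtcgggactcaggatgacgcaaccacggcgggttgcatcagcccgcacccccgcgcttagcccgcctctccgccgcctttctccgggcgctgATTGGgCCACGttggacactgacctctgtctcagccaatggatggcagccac
Pdia4: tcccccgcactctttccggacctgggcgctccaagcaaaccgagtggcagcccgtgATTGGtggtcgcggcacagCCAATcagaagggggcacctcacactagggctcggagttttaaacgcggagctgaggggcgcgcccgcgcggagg

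Mean levels over the 21 libraries were 0.865 CPM for the untested Derl3, and ran among the 30 tested members from 6.63 CPM for Ern2, the IRE1 form of the intestinal epithelium, to 948 CPM for Hspa5, the ER Hsp70 also called BiP. Reads start at the 3′ end of each transcript, so these levels were not divided by gene length. The 31 members together took 0.422 to 0.628% of counts outside mitochondrial rRNA, with the unnamed gene left in. Their summed level was 3510 to 4180 CPM with DMSO, 3860 to 4690 CPM with tCDCA and 3670 to 4660 CPM with Asbt-/- CME(+), ranges that overlap.

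With tCDCA, no member of the folding and degradation set was called against DMSO. The count was 0 of 30, beside 5.68% of all genes tested (746 genes). At an unadjusted p under 0.05 there were 3 members, Hspa5, Pdia6 and Txndc5, beside 17.7% of all genes, and DESeq2 also called 0. Changes ran from -0.34 to 0.55, with 17 members above 0 and 13 below, and their median was 0.09, against 0 over all genes tested. For 26 of the 30 members the 95% interval lay wholly between -1 and 1, that is within 2-fold in either direction. The upper bounds for Ern2, Hyou1, Txndc5 and Creld2 reached 1 or more, so their intervals include a 2-fold rise.

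Among the sensors, Atf6 stood at 43.7, 47.6 and 29.4 CPM in DMSO replicates 2 to 4 and at 37.6, 56, 32.6 and 52.8 CPM in tCDCA replicates 1 to 4. The ranges overlap, and its change was 0.29 ± 0.21 (SE; edgeR adjusted p = 0.512). Ern1, which encodes IRE1alpha, stood at 18, 19.6 and 12.5 CPM with DMSO and at 9.36, 18.3, 14.1 and 18.5 CPM with tCDCA. Its tCDCA replicate 1 was the lowest of these 7 libraries, and the change was -0.19 ± 0.29 (adjusted p = 0.823). Eif2ak3, which encodes PERK, stood at 41, 30.4 and 26.3 CPM with DMSO and at 14.3, 23.8, 23 and 32 CPM with tCDCA. The low value of 14.3 CPM was again the first-run library, and the change was -0.33 ± 0.23 (adjusted p = 0.481). Xbp1, the factor that IRE1 activates by splicing its mRNA, stood at 81.9, 112 and 90 CPM with DMSO and at 175, 85.2, 130 and 92.1 CPM with tCDCA. The value of 175 CPM belongs to the first run, where all used libraries were at 161 to 204 CPM, and with the run term the change was 0.09 ± 0.16 (adjusted p = 0.859). The remaining sensors, Atf6b and Ern2, were not called in any comparison of additives.

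The chaperones gave small differences of both signs with tCDCA. Hspa5 stood at 776, 664 and 865 CPM with DMSO and at 938, 931, 1010 and 1110 CPM with tCDCA. Every tCDCA library was above every used DMSO library, and the change was 0.37 ± 0.17, with an interval from 0.03 to 0.7 and an edgeR adjusted p of 0.221. In the first run, the DMSO library that the submitters left out was at 947 CPM and the tCDCA library at 938 CPM. Hsp90b1, the ER Hsp90 also called GRP94, stood at 309, 264 and 301 CPM with DMSO and at 443, 291, 220 and 280 CPM with tCDCA. Its second-run ranges overlap and the change was -0.08 ± 0.16 (adjusted p = 0.872). Dnajb9, a J-domain partner of BiP and a common readout of spliced XBP1, stood at 35.5, 55.6 and 55.4 CPM with DMSO and at 45.6, 42.8, 62.4 and 39.6 CPM with tCDCA. The groups overlap and its change was 0.07 ± 0.22 (adjusted p = 0.925). Of the 11 chaperones and co-chaperones, 7 lay above 0 and 4 below, with a median of 0.13.

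Herpud1, a membrane scaffold of the degradation complex, stood at 62.1, 42.3 and 56 CPM with DMSO and at 67.2, 75.7, 82.8 and 62.8 CPM with tCDCA. Every tCDCA library was above every used DMSO library, by little at the closest pair, and the change was 0.34 ± 0.21 (edgeR adjusted p = 0.421). Of the 7 degradation factors tested, Herpud1 included, 2 lay above 0, and their median was -0.1. Sel1l, the partner of the ubiquitin ligase encoded by Syvn1, had a change of -0.32 ± 0.18 (adjusted p = 0.379). Over the second run, with 3 libraries a group, 8 members did not overlap between tCDCA and DMSO, of 30 (19.1% of all genes tested did not). They were Ern2, Hspa5, Pdia6 and Herpud1 on the high side (4 of 30, against 9.33% of all genes), and Canx, Sdf2l1, Sel1l and Os9 on the low side (4 of 30, against 9.78%).

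**Figure D1:**
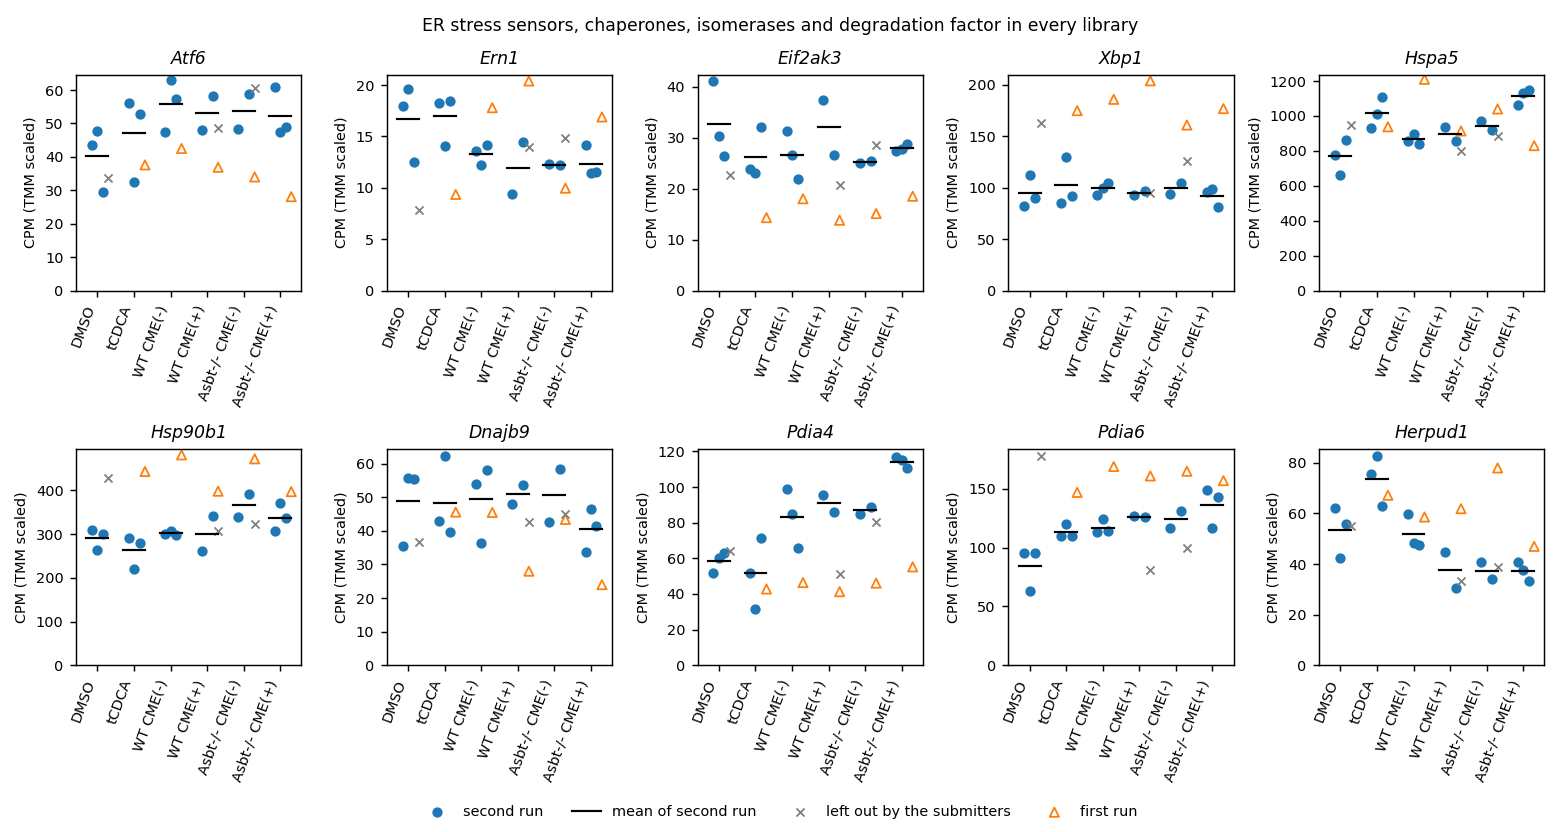
Levels of 10 members in every library, in CPM after TMM scaling, by additive: filled circles are second-run libraries, black bars their means, open triangles the first-run library, and grey crosses libraries the submitters left out. Pdia4 in the Asbt-/- CME(+) group shows 3 second-run libraries at 111 to 117 CPM and the first-run library at 55.2 CPM, and Xbp1 shows every used first-run library above the second-run libraries of its group.

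Isomerases gave the only calls among the members, and they were with Asbt-/- CME(+), the extract of Asbt-/- donors taken as depleted of bile acids. Against DMSO 2 of 30 members were called, both higher and both disulfide isomerases of the thioredoxin family, Pdia4 and Pdia6. Of all genes tested 2.31% were called and 1.39% were called higher, and a count of 2 is too small to read as a result about the set. At an unadjusted p under 0.05 there were 9 members, beside 15.2% of all genes. Changes ran from -0.55 to 0.92, with 17 members above 0 and a median of 0.1, against -0.01 over all genes tested.

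Pdia4, also called ERp72, stood at 51.7, 60.1 and 63.2 CPM in DMSO replicates 2 to 4, and at 55.2, 117, 115 and 111 CPM in Asbt-/- CME(+) replicates 1 to 4. The 3 second-run libraries lay close together and clear of DMSO, while the first-run library lay inside the DMSO range. Its change was 0.92 ± 0.21, or 1.89-fold, with an interval from 0.5 to 1.33 and an edgeR adjusted p of 0.00902. In the other groups Pdia4 stood at 42.8, 51.9, 31.3 and 71.6 CPM with tCDCA and at 46.4, 98.8, 84.9 and 65.7 CPM with WT CME(-). It stood at 46.1, 84.9 and 89 CPM with Asbt-/- CME(-), and at 41.3, 95.6 and 86 CPM with WT CME(+), each list beginning with the first-run library. All second-run extract libraries were thus above every DMSO library, and none of the first-run ones was above 55.2 CPM. The changes against DMSO were 0.51, 0.55 and 0.54 in WT CME(-), Asbt-/- CME(-) and WT CME(+), with adjusted p of 0.389, 0.272 and 0.375. With tCDCA the change was -0.02 ± 0.21 (adjusted p = 0.982).

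Pdia6, also called P5, stood at 95.4, 62.9 and 95.3 CPM with DMSO and at 157, 149, 117 and 143 CPM with Asbt-/- CME(+), beginning with the first-run library. All 4 were above the used DMSO libraries, which are all of the second run, and DMSO replicate 3 at 62.9 CPM was the lowest. The change was 0.64 ± 0.16, or 1.56-fold, with an interval from 0.32 to 0.96 and an edgeR adjusted p of 0.0196. With tCDCA it stood at 147, 110, 120 and 110 CPM, and the change was 0.42 ± 0.16 (interval 0.1 to 0.74; adjusted p = 0.124). The tCDCA libraries too were all above the used DMSO libraries, by a smaller margin. In the remaining extract groups Pdia6 stood at 169, 113, 124 and 114 CPM with WT CME(-), at 165, 117 and 131 CPM with Asbt-/- CME(-), and at 161, 127 and 126 CPM with WT CME(+). All of these too were above the used DMSO libraries. The changes were 0.5, 0.56 and 0.57 in WT CME(-), Asbt-/- CME(-) and WT CME(+), with adjusted p of 0.207, 0.107 and 0.189. DESeq2 gave adjusted p of 0.035 and 0.0444 for the last 2.

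Both calls rest on DMSO libraries of 1 run. In the first run, the DMSO library left out by the submitters stood at 64.2 CPM for Pdia4 and 178 CPM for Pdia6, above the Asbt-/- CME(+) library at 55.2 and 157 CPM. With that DMSO library added, the change of Pdia4 was 0.64 (adjusted p = 0.163) and that of Pdia6 was 0.45 (adjusted p = 0.201). Without DMSO replicate 3 the values were 0.94 (adjusted p = 0.0599) and 0.47 (adjusted p = 0.274). Pdia6 was also no longer called without Asbt-/- CME(+) replicate 2 (adjusted p = 0.0915) or replicate 4 (adjusted p = 0.0826), and Pdia4 stayed called in both. With a replicate block in place of the run term both remained called, at adjusted p of 0.0147 and 0.0275.

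No other isomerase and no chaperone was called with Asbt-/- CME(+). Pdia3, the isomerase that works with calreticulin and calnexin, had a change of 0.45 ± 0.17 (edgeR adjusted p = 0.153), and P4hb, the classic protein disulfide isomerase, had -0.13. Hspa5 stood at 830, 1060, 1130 and 1150 CPM, again with the first-run library lowest and within the DMSO range, and its change was 0.44 ± 0.17 (adjusted p = 0.163). Dnajb11, a J-domain co-chaperone of BiP, had a change of 0.51 ± 0.18 (adjusted p = 0.122). Of 30 members, 11 did not overlap between the second-run libraries of the 2 groups (23.5% of all genes tested did not). Hspa5, Calr, Dnajb11, Manf, Pdia3, Pdia4, Pdia6 and Txndc5 were high (8 of 30, against 12.3% of all genes), and Herpud1, Sel1l and Os9 were low (3 of 30, against 11.2%).

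Herpud1 took the opposite side here. It stood at 47, 40.8, 37.7 and 33.3 CPM with Asbt-/- CME(+), beginning with the first run, and its change against DMSO was -0.55 ± 0.21 (interval -0.96 to -0.13; edgeR adjusted p = 0.162). In the other extract groups its second-run libraries were at 59.9, 48.2 and 47.5 CPM for WT CME(-), 40.7 and 34.1 CPM for Asbt-/- CME(-), and 44.7 and 30.5 CPM for WT CME(+). Their first-run libraries were at 58.6, 78 and 61.9 CPM in that order. The second-run tCDCA libraries, at 62.8 to 82.8 CPM, were above every second-run extract library, while the first-run Asbt-/- CME(-) library at 78 CPM lay within their range. Set directly against tCDCA, Herpud1 was higher with tCDCA than with Asbt-/- CME(-) by 0.59 ± 0.21 (adjusted p = 0.348). In the second-run libraries alone, an alternative chosen after the levels had been seen, that difference was 0.97 (adjusted p = 0.0466).

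**Figure D2:**
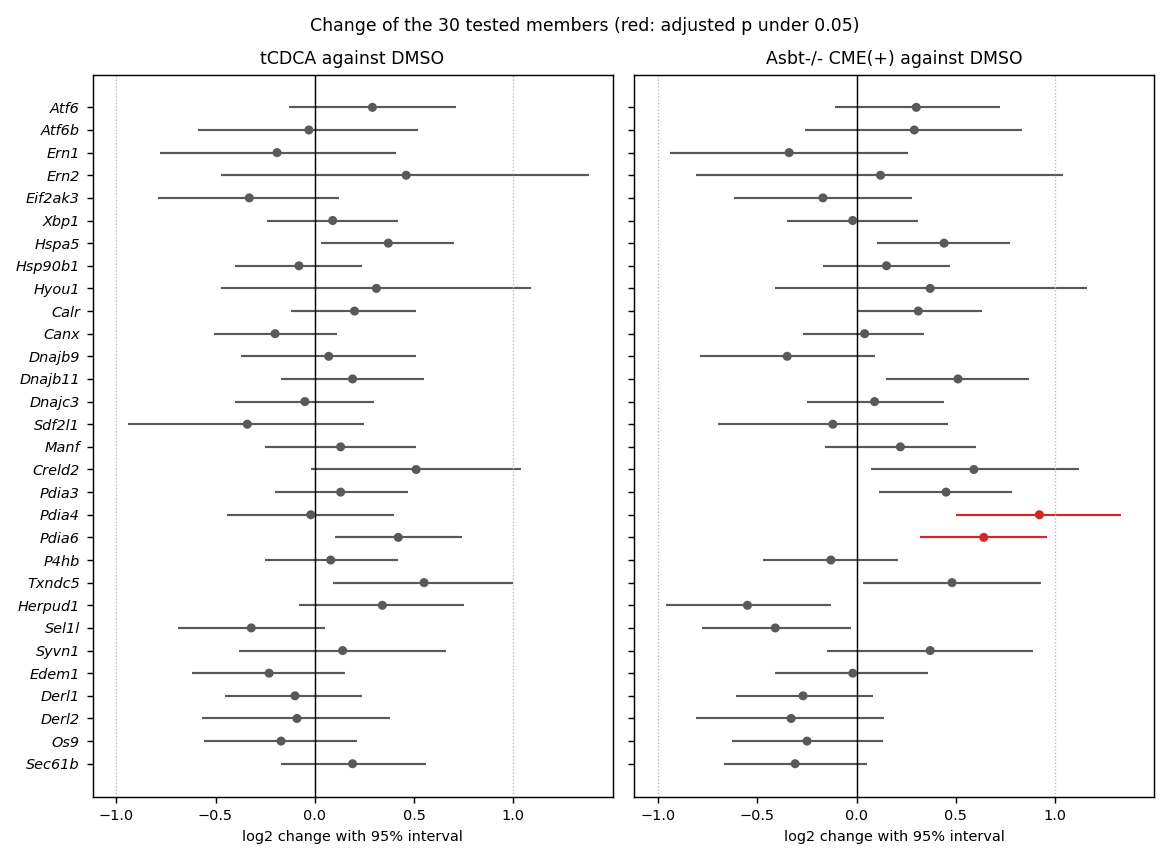
Log2 change of the 30 tested members against DMSO with 95% intervals, for tCDCA on the left and Asbt-/- CME(+) on the right; red marks an adjusted p under 0.05 and dotted lines mark a 2-fold change in either direction. With tCDCA none is red and the points lie between -0.34 and 0.55, and on the right Pdia4 at 0.92 and Pdia6 at 0.64 are red.

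The other 3 extract groups called no member against DMSO. The count was 0 of 30 with WT CME(-), where 0.297% of all genes were called, 0 of 30 with Asbt-/- CME(-) (0.952%) and 0 of 30 with WT CME(+) (0.175%). By DESeq2 the counts were 0, 1 and 1, and at an unadjusted p under 0.05 they were 6, 6 and 4, beside 9.38, 12.4 and 10.0% of all genes. Medians over the members were 0.08, 0.12 and 0.1. The second-run libraries of WT CME(-) did not overlap those of DMSO for 4 members (13.5% of all genes), Dnajb11, Pdia4, Pdia6 and Txndc5, all of them higher (6.71% of all genes). The 5 comparisons share the DMSO libraries, so their values are not independent. DMSO replicate 3 gave the highest or lowest second-run level of 12 of the 30 members, and in 9 of these the lowest. This is 40% of members, against 22.1% of all genes in the same library. In tCDCA replicate 3 the count was 10 of 30 members, or 33.3%, against 24.8% of all genes. Mitochondrial rRNA took 5.29% of that library, and 33.14 and 28.14% of tCDCA replicates 2 and 4.

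No sensor was called in an extract group, and neither were Xbp1, Hspa5, Hsp90b1 and Dnajb9. The first-run library is named first in each series of values. Atf6 stood at 42.5, 47.5, 62.9 and 57.2 CPM with WT CME(-), 34, 48.4 and 58.8 CPM with Asbt-/- CME(-), 36.9, 48 and 58.2 CPM with WT CME(+), and 28.1, 60.9, 47.3 and 48.9 CPM with Asbt-/- CME(+). The first-run library was the lowest of each group, and the changes against DMSO were 0.52, 0.38, 0.41 and 0.3 in that order, with edgeR adjusted p of 0.389 to 0.546. Ern1 stood at 17.8, 13.6, 12.2 and 14.2 CPM, 9.97, 12.3 and 12.2 CPM, 20.4, 9.45 and 14.5 CPM, and 16.9, 14.2, 11.4 and 11.5 CPM in the same order of groups. Its changes were -0.24, -0.59, -0.21 and -0.34, each with an interval that includes 0. Eif2ak3 stood at 18, 31.3, 26.6 and 21.9 CPM, 15.1, 25 and 25.5 CPM, 13.8, 37.4 and 26.6 CPM, and 18.5, 27.3, 27.8 and 28.7 CPM. It was lowest in the first run in every group, and its changes were -0.23, -0.35, -0.16 and -0.17. Xbp1 stood at 186, 92.9, 100 and 105 CPM, 161, 94.2 and 105 CPM, 204, 93.1 and 96.4 CPM, and 177, 95.7, 99.1 and 81.6 CPM. Within the second run these values overlap DMSO, and the changes were 0.08, 0.01, 0.08 and -0.02.

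Hspa5 stood at 1210, 858, 897 and 841 CPM with WT CME(-), at 1040, 970 and 919 CPM with Asbt-/- CME(-), and at 914, 937 and 855 CPM with WT CME(+). Its second-run values overlap DMSO in WT CME(-) and WT CME(+) and lie above DMSO in Asbt-/- CME(-). The changes were 0.3, 0.33 and 0.22, with edgeR adjusted p of 0.614, 0.461 and 0.736. Hsp90b1 stood at 481, 299, 307 and 298 CPM, 472, 339 and 392 CPM, 398, 261 and 341 CPM, and 397, 306, 371 and 336 CPM in the 4 extract groups, in the order used for Atf6. Its first-run libraries were the highest of each group, and the changes were 0.1, 0.29, 0.02 and 0.15. Dnajb9 stood at 45.5, 54, 36.3 and 58 CPM, 43.4, 42.7 and 58.4 CPM, 28, 48 and 53.8 CPM, and 24, 33.8, 46.6 and 41.5 CPM. Its changes were 0.09, 0.11, -0.08 and -0.35, with no shared direction.

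No member was called between CME forms, between donors of the same form, or between tCDCA and the CME(-) extracts. Contrasts of tCDCA with the CME(+) extracts were not fitted. With WT donors, CME(-) against CME(+) called 0 of 30 members and 0% of all genes, and with Asbt-/- donors 0 of 30 members and 0.0229% of all genes. WT against Asbt-/- donors called 0 of 30 members and 0% of all genes for CME(-) and again for CME(+), and so did the difference between the donors' contrasts. For tCDCA the counts were 0 of 30 against WT CME(-) (0.541% of all genes) and 0 of 30 against Asbt-/- CME(-) (0.114%). At an unadjusted p under 0.05 these 7 comparisons had 2, 2, 1, 0, 2, 2 and 5 members, beside 6.33, 7.11, 4.05, 4.24, 3.74, 10.7 and 8.3% of all genes, and DESeq2 called none in any of them. Pdia4 was lower with tCDCA than with WT CME(-) by -0.53 ± 0.19 (edgeR adjusted p = 0.24) and than with Asbt-/- CME(-) by -0.56 ± 0.2 (adjusted p = 0.348).

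Genes under ATF4 were called with tCDCA while the ER members were not, and the difference between the lists was not tested. The ATF4 list was chosen with earlier results of these data known, so its calls are not an independent finding. Of 38 ATF4 response genes tested, 20 were called higher and 0 lower, beside 5.68% of all genes called in either direction. Their median was 0.81. The 6 with the smallest p were Chac1, which degrades glutathione (1.81 ± 0.25, edgeR adjusted p = 5.77e-06), Psat1 of serine synthesis (1.44), Mthfd2 of mitochondrial one-carbon metabolism (1.15), the amino acid carriers Slc7a1 (1.11) and Slc7a11 (1.21), and Ppp1r15a, which directs dephosphorylation of eIF2alpha (0.9). Atf4 itself rose by 0.78 ± 0.18 (adjusted p = 0.00491). Its range was 147 to 186 CPM with tCDCA and 88.1 to 108 CPM with DMSO. Ddit3, which encodes CHOP, had a change of -0.46 ± 0.31 (adjusted p = 0.483), and Atf3 had 0.05 ± 0.17 (adjusted p = 0.925). The Ddit3 value is that of ENSMUSG00000025408, and another identifier with this symbol was at 0 in every used library. The 20 calls fell to 10 without DMSO replicate 3, to 6 without both that library and tCDCA replicate 3, to 9 when only the 2 groups were fitted and to 6 with no run term. Under the same 4 settings the count of ER members was 0.

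With Asbt-/- CME(+), 7 of 38 ATF4 response genes were called higher, beside 1.39% of all genes. Chac1 was at 1.29 (edgeR adjusted p = 0.00206) and Psat1 at 1.14 (adjusted p = 0.00324). That count was 2 without DMSO replicate 3, 4, 3 and 2 without Asbt-/- CME(+) replicates 2, 3 and 4 in turn, 1 with DMSO replicate 1 added and 0 with no run term. WT CME(+) had 2, Slc7a5 (1.38, adjusted p = 0.0239) and Chac1 (1.16, adjusted p = 0.0499), beside 0.175% of all genes called. It had 0 or 1 without any 1 DMSO library. WT CME(-) and Asbt-/- CME(-) had 0 called, and 2 each by DESeq2. At an unadjusted p under 0.05 they had 12 and 21 genes, beside 9.38 and 12.4% of all genes. Of the kinases that phosphorylate eIF2alpha, none of the 4 was called against DMSO: with tCDCA the change was -0.23 for Eif2ak1, -0.34 for Eif2ak2, -0.33 for Eif2ak3 and 0.61 for Eif2ak4. These are mRNA levels, and kinase activity was not measured.

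Few calls were made in a wider set of 92 ER genes. With tCDCA 1 was called higher, the channel subunit Sec61a1 (0.57 ± 0.17, edgeR adjusted p = 0.032), and 2 lower, the COPII GTPase Sar1b (-0.64 ± 0.16, adjusted p = 0.00936) and Crebrf (-0.76 ± 0.23, adjusted p = 0.0406). The median was 0.08, and 3 of 92 called stands beside 5.68% of all genes. With Asbt-/- CME(+) the same Sec61a1 was higher (0.71, adjusted p = 0.0134) and Sar1b lower (-0.58, adjusted p = 0.0374), and the other 3 extract groups had 0 called. Within it, the 24 genes of translocation, signal peptidase and glycosylation had 21 above 0 and a median of 0.25 with tCDCA. That was the highest median among the roles of the wider set, the others running from -0.11 to 0.08. Of the 24 genes 1 was called. Their count above 0 was 21 with WT CME(-), 22 with Asbt-/- CME(-), 19 with WT CME(+) and 20 with Asbt-/- CME(+). Their medians were 0.26, 0.28, 0.2 and 0.28 in that order. These 5 comparisons share the DMSO libraries, and 48.5 to 50.2% of all genes lay above 0 in them. Sec61b, the member of that machinery, had a change of 0.19 with tCDCA and was not called.

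**Figure D3:**
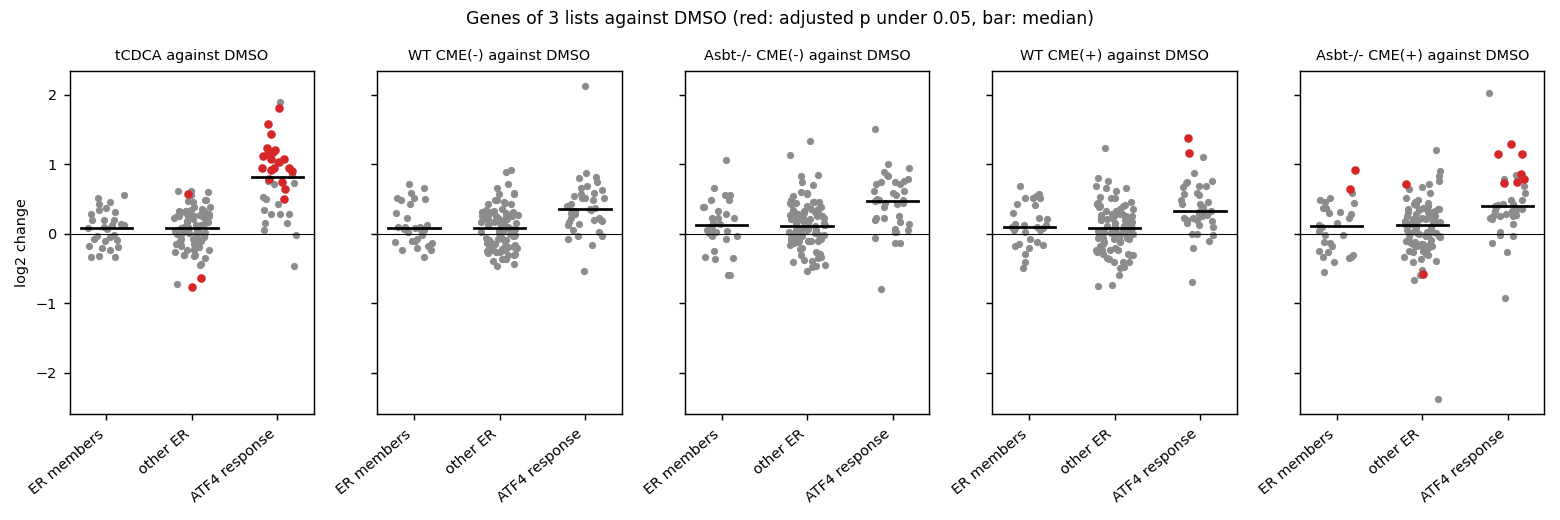
Log2 change against DMSO of each gene of 3 lists, 30 ER members, 92 other ER genes and 38 ATF4 response genes, in 5 panels by additive; red marks an adjusted p under 0.05 and bars are medians. In the tCDCA panel 20 ATF4 response genes are red with a median of 0.81, and 0 ER members are red with a median of 0.09.

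Cell type markers moved in some of the same comparisons. With tCDCA, 12 of 16 enterocyte markers were called lower (median -1.38), and their summed level was 5930 to 10800 CPM against 12500 to 16500 CPM with DMSO. Of 9 Paneth cell markers 4 were called higher (median 0.71; sums of 35700 to 55900 against 26100 to 30500 CPM). Of 11 goblet cell markers 2 were called lower, but the list went both ways, with 5 above 0 and 6 below. Its median was -0.04, and the sums overlap (4860 to 7040 against 5860 to 7530 CPM). Of 5 tested B and plasma cell markers none was called, and Mzb1 was at 0 in every used library. The B and plasma cell list summed to 224 to 558 against 241 to 267 CPM. Of 10 enteroendocrine markers 3 were called higher, Tac1, Cck and Gcg. Summed over all 10, the level was 491 to 672 CPM against 449 to 465 CPM. With Asbt-/- CME(+), 0 of 16 enterocyte markers were called, with a median of -0.58 and 13 at an unadjusted p under 0.05, and the sum was 6960 to 10100 CPM. Of Paneth markers 0 of 9 were called there, with sums of 15800 to 33200 CPM, and of goblet markers 0 of 11 (sums of 5090 to 6390 CPM). Of 10 enteroendocrine markers 1 was called higher there, Tac1, and the 10 summed to 404 to 531 CPM. Of 6 fibroblast markers 1 was called lower, Dcn, and the median change of the 6 was -0.46. The 6 summed to 241 to 867 CPM, against 450 to 474 CPM with DMSO. All 6 smooth muscle markers lay below 0 with a median of -0.56, and none was called (sums of 810 to 955 against 902 to 1610 CPM). The part of these shifts in the members' values was not tested. In pieces of whole tissue, fewer cells of a type and less RNA per cell cannot be told apart.

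Members were also divided by whether their window holds an ERSE or ERSE-II. With tCDCA the 10 tested members with such a site had a median change of 0.19, with 7 above 0, and the 15 members whose windows lack one had -0.03, with 6 above 0. With Asbt-/- CME(+) the values were 0.34, with 9 above 0, and -0.13, with 4 above 0. The medians with and without a site were 0.11 and -0.02 for WT CME(-), 0.26 and 0.01 for Asbt-/- CME(-), and 0.16 and 0.06 for WT CME(+), all against the same DMSO libraries. Between the CME forms they were 0.02 and -0.03 with WT donors, and in the opposite order, -0.04 and -0.02, with Asbt-/- donors. The 2 called members fell on either side: Pdia6 has the ERSE shown above and Pdia4 has no exact match in its window. Only exact letters were searched, so the near match in Pdia4 shown above was counted as absent. These medians are descriptions, with no test.

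More members were called between the runs than in any fitted comparison of additives. In the same model 23 of 30 members were called between the second and the first run, 14 higher and 9 lower in the second, beside 37.3% of all genes tested (18.9% higher and 18.4% lower). Hyou1, a nucleotide exchange factor of BiP, was 3.52-fold higher in the second run (1.82 ± 0.28 on the log2 scale; edgeR adjusted p = 6.29e-05). Pdia3 stood at 139 to 167 CPM in the first run and 242 to 473 CPM in the second, without overlap. Xbp1 stood at 161 to 204 CPM in the first and 81.6 to 130 CPM in the second, also without overlap, a difference of -0.88 ± 0.11. Hspa5 did not follow this (-0.03 ± 0.11, adjusted p = 0.848). Members of 1 function split in both directions, with Pdia3, Pdia4 and P4hb higher in the second run and Pdia6 lower. Since no used DMSO library is from the first run, each change against DMSO takes the run term from the other 5 groups. In the first run, Asbt-/- CME(+) was above the left-out DMSO library for 10 of 30 members, tCDCA for 16, and WT CME(-) for 20. WT CME(+) was above it for 17 and Asbt-/- CME(-) for 16. Each count sets 1 library against 1, and the share of all genes was not counted, so no result is read from them.

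**Figure D4:**
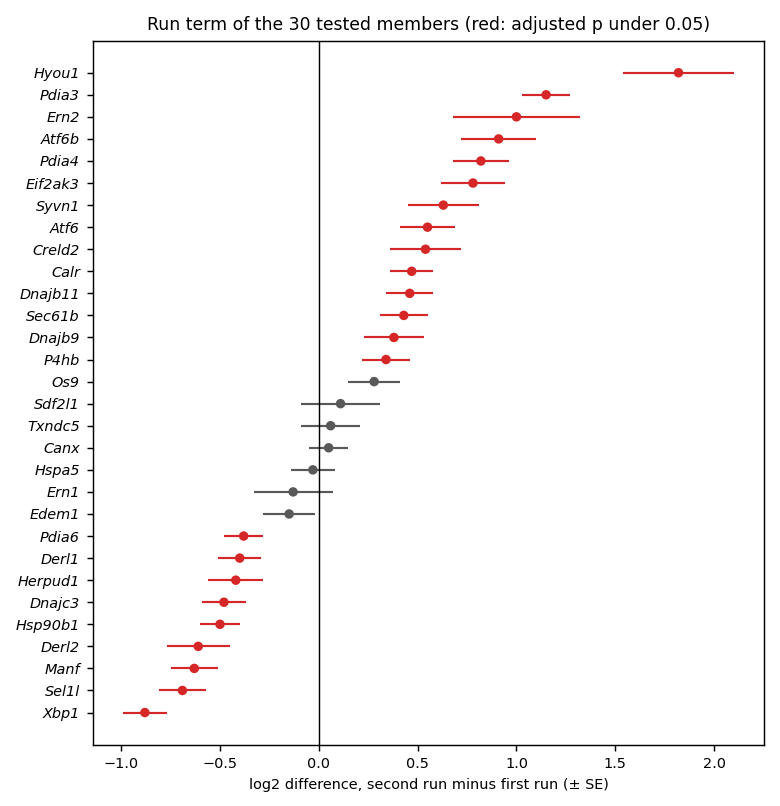
Log2 difference between the second and first run for each of the 30 tested members, with its standard error as bars; red marks an adjusted p under 0.05. Points spread from -0.88 for Xbp1 to 1.82 for Hyou1, and 23 of 30 are red.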

How the data were processed

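The authors deposited 1 table of raw counts per gene for 24 libraries made with a 3′ mRNA kit from total RNA, per the labels' protocols. The submitters' processing notes name HISAT2, cutadapt, Picard and FastQC, without versions, and build GRCm39. How reads were counted per gene, and by which annotation and strand setting, is not given in the sources used here, so overlapping and antisense genes are uncertain. Symbols came from GENCODE annotation of GRCm38.

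The 21 used libraries were fitted in R 4.3.3 with edgeR 4.0.16 (filterByExpr, TMM scaling, robust quasi-likelihood fit, terms for group and run). The 12 comparisons are two-sided contrasts, adjusted by Benjamini-Hochberg within each, and the common biological coefficient of variation was 0.266. DESeq2 1.42.0, other scalings, filters, run handling and left-out libraries were alternatives. The fit was tested on simulated counts. The members and lists were chosen with earlier results of these data known. Values in every library were given for called members, for Atf6, Ern1, Eif2ak3, Xbp1, Hspa5, Hsp90b1, Dnajb9 and Herpud1, and up to 6 called genes of the other lists were named.

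Extract libraries of WT or Asbt-/- donors with the same donor label in both CME forms are paired by that label. Their residuals correlated at -0.0726 to 0.0164 (4 pairs, median -0.0262).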

Additional observations from a re-analysis of the deposited data

Results flagged for a closer look

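Within the 3 groups of 4 used libraries, the CPM of 1 library lay far from the other 3, by Dixon's gap ratio, in 10 of 90 combinations of member and group. For independent normal values the rate is about 1 in 20. The combinations share libraries, and each group mixes 1 first-run with 3 second-run libraries, so that rate is no yardstick here. Of the 10, 9 were the first-run library. The members in these 9 were also called between the runs in the model, except Hspa5 (-0.03 ± 0.11, edgeR adjusted p = 0.848). In WT CME(-) replicate 1, Hspa5 was at 1210 CPM (others 841 to 897), Hsp90b1 at 481 (298 to 307), Manf at 204 (92.5 to 102), Xbp1 at 186 (92.9 to 105) and Derl2 at 47 (23 to 26). In Asbt-/- CME(+) replicate 1, Pdia4 was at 55.2 CPM (others 111 to 117), Eif2ak3 at 18.5 (27.3 to 28.7) and Sel1l at 70.8 (35 to 38). In tCDCA replicate 1, Sel1l was at 72.2 CPM (38.3 to 39.4). The second-run case was Txndc5 in tCDCA replicate 2, at 23.1 CPM, with the others at 32.4 to 34.2.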

How the results depend on the processing

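The count of members called for tCDCA against DMSO was 0 under all 19 alternatives run, and so was that for WT CME(-) against DMSO. For Asbt-/- CME(+) against DMSO it was 2, and 0 with no run term, with all 24 libraries or with DMSO replicate 1 added. It was 1 without tCDCA replicate 3 and DMSO replicate 3, and from 0 to 2 with each replicate left out in turn (0 without DMSO replicate 3, 1 without Asbt-/- CME(+) replicate 2 or 4). DESeq2 called 1 member for Asbt-/- CME(-) and 1 for WT CME(+), Pdia6 in both. The second-run libraries alone, chosen after seeing the data, called 1 member for tCDCA against Asbt-/- CME(-). The cause of these moves was not tested. A replicate block in place of the run term left 2 members called, and the block by extract donor left 0 in each CME contrast. No called value changed sign. Without scaling factors the median of all genes moved to 0.13 for tCDCA and 0.22 for Asbt-/- CME(+); members above 0 were then 23 and 22 of 30, and 17 in both lay above that median. With 10 to 40 counts per library Ern2 is the least precise member, and SEs for tCDCA ran from 0.15 to 0.46.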
